A study of Mus musculus with 207 samples.

Results

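The actin, thymosin and tubulin genes measured here are 10 genes of the cytoskeleton, taken by name from a table of 44448 gene rows, and all 10 were found. They are the actins Actb and Actg1, the beta thymosins Tmsb4x and Tmsb10, cofilin Cfl1, profilin Pfn1, the alpha tubulins Tuba1a and Tuba1b, and the beta tubulins Tubb5 and Tubb2a. Their levels were read in 207 single islet cells of male mice, 69 from mice aged 26 months (old) and 138 from mice aged 3 months (young). The study set beta cells, the insulin-making cells of the islet, of very old mice against those of young mice, and each cell is titled a beta cell. No strain, treatment or animal is named, so each age counted as 1 sample, and no p-value or standard error can be given for an age difference. Errors are the spread between cells (SD), and intervals on shares of cells are exact 95% Clopper-Pearson intervals that cover counting error only.

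Expression was deposited as TPM, which divides by transcript length and sums to 1000000 in every cell, so read depth is unknown. The number of genes at 1 TPM or above in a cell, called detected below, had a median of 4078 in old cells (range 1916 to 6007) and 4291.5 in young cells (range 1604 to 6654). The summed TPM of 9 beta cell markers, Ins1 and Ins2 among them, had a median of 596553 in old cells and 624464 in young cells, and no cell was under 158735. The cell numbers of the titles fall into 8 runs that differ in overall make-up, 4 at each age. Low-kind runs held a mean of 2522 to 3983 TPM of mitochondrial rRNA and tRNA and high-kind runs 9868 to 27247 TPM, so values are also given within each kind (40 old and 54 young low-kind cells, 29 old and 84 young high-kind cells). Whether a run was a chip, a day or an animal is not stated, and the kinds were drawn up after the data had been seen. 6 cells stood apart by macrophage markers, described with the thymosins below, and results that rest on them are given with and without them.

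Actin polymerises from globular monomers into filaments, and profilin feeds monomers to growing ends, cofilin severs and disassembles filaments, and beta thymosins hold monomers in reserve. Microtubules are built from dimers of 1 alpha and 1 beta tubulin, each encoded by several genes whose proteins are closely alike. In beta cells, a cortical web of actin lies between insulin granules and the plasma membrane and is remodelled during secretion, while microtubules carry granules and hold part of them away from the membrane. Free actin monomer keeps the coactivators of the transcription factor SRF out of the nucleus, and SRF binds the CArG box of actin and other cytoskeletal promoters.

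A RefSeq promoter of build GRCm38.p6 was held for 9 of the 10 members, all but Actb. The 250 bases before the transcript start are printed for the 4 genes whose share of their family or age difference the results turn on, each on the minus strand of its chromosome. Actg1 lies at chr11:120348496-120348745, Tubb2a at chr13:34078009-34078258, Tuba1a at chr15:98953502-98953751 and Tuba1b at chr15:98934391-98934640. Each stretch reads 5′ to 3′ towards the start, and capitals mark a CArG box, CCAAT, TGACGTCA or TATAAA found on either strand.
Actg1: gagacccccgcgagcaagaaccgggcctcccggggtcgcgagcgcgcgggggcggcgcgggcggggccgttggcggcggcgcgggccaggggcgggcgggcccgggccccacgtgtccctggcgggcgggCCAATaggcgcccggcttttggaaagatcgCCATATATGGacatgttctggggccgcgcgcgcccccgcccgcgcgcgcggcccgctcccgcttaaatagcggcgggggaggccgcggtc
Tubb2a: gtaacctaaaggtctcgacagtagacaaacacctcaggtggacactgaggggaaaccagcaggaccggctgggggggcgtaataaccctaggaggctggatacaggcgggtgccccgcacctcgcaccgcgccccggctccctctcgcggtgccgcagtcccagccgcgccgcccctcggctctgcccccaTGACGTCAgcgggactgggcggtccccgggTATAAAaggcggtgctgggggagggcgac
Tuba1a: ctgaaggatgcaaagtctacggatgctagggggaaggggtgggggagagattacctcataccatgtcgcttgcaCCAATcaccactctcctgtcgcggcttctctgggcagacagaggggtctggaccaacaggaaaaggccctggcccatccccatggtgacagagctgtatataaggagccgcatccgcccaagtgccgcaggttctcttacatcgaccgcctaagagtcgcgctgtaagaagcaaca
Tuba1b: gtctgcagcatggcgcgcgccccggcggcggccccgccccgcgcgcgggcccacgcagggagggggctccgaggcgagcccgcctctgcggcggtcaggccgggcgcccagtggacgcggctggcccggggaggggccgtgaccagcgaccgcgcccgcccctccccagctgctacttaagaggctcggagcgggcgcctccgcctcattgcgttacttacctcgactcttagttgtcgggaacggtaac
The CArG box of Actg1, CCATATATGG, begins 90 bases before the start, and a CCAAT begins 120 bases before it. Among the 9 members with a promoter only Actg1 held a CArG box in its 300 bases (250 before and 50 after the start), and 1.63% of 32851 mouse promoters of that length did. Tubb2a held TGACGTCA, a form of the cyclic AMP response element, 59 bases before the start (1.79% of promoters) and TATAAA 29 bases before it (13.6% of promoters). Tuba1a held a CCAAT 176 bases before its start, a motif of 37.4% of promoters, and none of these 4 motifs was in the printed bases of Tuba1b. GGGCGG, not capitalised, was in 35.7% of promoters. It occurred in all 4 printed stretches and overlapped none of the capitals. A match here is a run of letters and says nothing of whether a factor binds.

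Across ages, 9 of the 10 members had a lower mean in old cells, most by little. With a ratio of mean TPM plus 1, 3 members were at least 1.5-fold lower in old cells, Actb, Tuba1b and Tubb2a, and 0 were at least 1.5-fold higher. Of 12155 genes that averaged at least 1 TPM at 1 of the ages or both, 26.4% were 1.5-fold lower and 16.8% were 1.5-fold higher in old cells. The members' 3 of 10 is therefore close to the share of all genes that was lower. Other ways of comparing gave other counts. Differences of mean log2(TPM + 1) give the highest cells less weight and cells near 0 more. By them 6 members were 1.5-fold lower (Actb, Actg1, Tmsb10, Tuba1a, Tuba1b and Tubb2a) and 0 higher, against 7.28% and 1.09% of all genes. Of the 4749 genes that averaged 10 TPM or more at an age, 16.3% were lower and 2.4% higher by them. With ratios of medians 4 were lower and 2 higher, Tmsb4x and Tubb5, against 11.1% and 2.04% of all genes, and 25.4% and 4.34% of those 4749. Without the 6 macrophage-marker cells 2 were lower and 0 higher, against 25.4% and 17.2% of all genes. The median log2 difference of the members was -0.32, and that of all 12155 genes was -0.10. The summed TPM of the 10 members ran from 31.1 through a median of 1431 to 7145 in old cells, and from 111 through a median of 1619 to 19178 in young cells. Means were 1558 ± 1129 TPM in old cells and 2112 ± 2204 TPM in young cells (SD between cells), a log2 difference of -0.44, which was -0.27 in low-kind and -0.56 in high-kind runs. The 4 old run means (1206 to 1938 TPM) lay inside the range of the 4 young run means (1036 to 2826 TPM). For each of the 10 members too, the old and young run means overlapped over all 8 runs. How many of all genes overlap so was not counted, so this does not set the members apart from other genes.

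**Figure D1:**
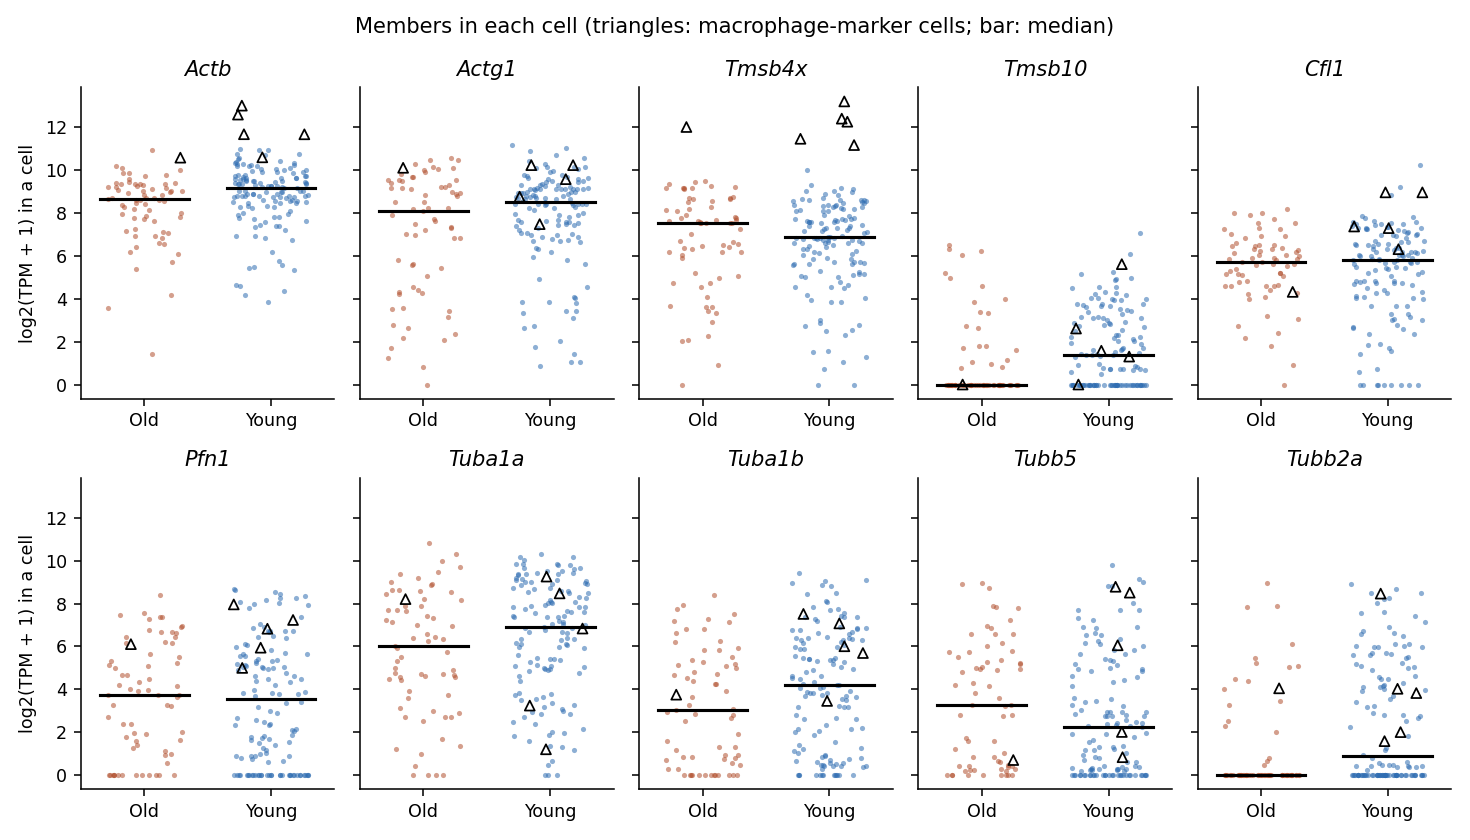
The value of each member in each cell, on a log2(TPM + 1) axis, for 69 old and 138 young cells, with a bar at the median and triangles for the 6 macrophage-marker cells. The ages overlap for every member, Tmsb10 and Tubb2a have many cells at 0 at both ages, and the 6 triangles are the 6 highest Tmsb4x values.

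Actb, cytoplasmic beta actin on chromosome 5, was the most abundant member at both ages and was detected in every cell. It ran from 1.67 through a median of 397 to 1935 TPM in old cells, and from 13.4 through a median of 566 to 8200 TPM in young cells. Its mean was 455 ± 360 TPM in old cells and 763 ± 957 TPM in young cells, a log2 difference of -0.75, with -0.33 in low-kind and -0.73 in high-kind runs. The highest run mean was 1243 TPM in the young cells 55 to 86, which also had the highest means of the immediate early genes Fos (961 TPM) and Egr1 (527 TPM) among the 8 runs. The other runs did not follow that order throughout. Old cells 139 to 158 had the lowest Fos (60.1 TPM) and Egr1 (37.3 TPM) with 653 TPM of Actb. Young cells 40 to 54 had the lowest Actb (287 TPM) with 429 TPM of Fos. A link between these genes and Actb was not tested. Old run means of Actb spanned 326 to 653 TPM and young run means 287 to 1243 TPM. With the young cells 55 to 86 left out, the log2 difference was -0.44, and without the 6 macrophage-marker cells it was -0.50, each short of 1.5-fold. With those 6 cells left out it was 0.02 in low-kind and -0.48 in high-kind runs.

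Actg1, cytoplasmic gamma actin on chromosome 11, had a small age difference by the ratio of means and a larger one by the other measures. It ran from 0 through a median of 267 to 1491 TPM in old cells, and from 0.803 through a median of 358 to 2316 TPM in young cells. Its mean was 404 ± 418 TPM in old cells and 450 ± 431 TPM in young cells (log2 difference -0.15, -0.11 in low-kind and -0.33 in high-kind runs), and leaving out the macrophage-marker cells left it at -0.15. The difference of mean log2(TPM + 1) was -0.75, and the log2 ratio of medians was -0.42. Run means varied far more than the ages did, and the lowest and the highest were both young, 79.7 TPM in cells 40 to 54 and 647 TPM in cells 1 to 39. A processed pseudogene of actin on chromosome 4, Gm12715, shares 90.2% of its 50-base words with Actg1. It followed Actg1 from cell to cell (Spearman correlation 0.92 in old and 0.82 in young cells) at a mean of 110 TPM in old cells and 113 TPM in young cells. How reads that match both were shared out by the authors is not given, so the 2 rows cannot be fully told apart.

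The share of actin TPM that was Actg1 averaged 39.2% ± 26.9 in old cells and 36.4% ± 23.2 in young cells (SD between cells), from 0 to 92.4% in old cells and from 0.262% to 95.6% in young cells. Actb was above Actg1 in 65.2% of old cells and 75.4% of young cells. The mean share was 45.9% in old and 44.9% in young low-kind cells, and 29.9% in old and 31.0% in young high-kind cells. It differed between kinds at each age by more than it differed between ages within a kind. The young low-kind runs were unlike each other, with 52.9% in cells 1 to 39 and 23.9% in cells 40 to 54. Both old low-kind runs averaged close to 46% (45.8% in cells 159 to 190 and 46.2% in cells 200 to 207). Actin use thus differed between runs, while the age difference of 2.79 percentage points was -2.96 without the old cells 159 to 190 and 9.29 without the young cells 1 to 39. The smooth and striated muscle actins were low in most cells. Acta1 averaged 2.40 TPM in old cells and 6.74 TPM in young cells, was detected in 13.0% of old and 7.25% of young cells, and reached 53.1 TPM in an old and 615 TPM in a young cell. Acta2 averaged 0.0809 TPM in old cells and 0.363 TPM in young cells, cardiac Actc1 reached 0.471 TPM in an old and 107 TPM in a young cell, and Actg2 was listed at 0 in every cell.

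**Figure D2:**
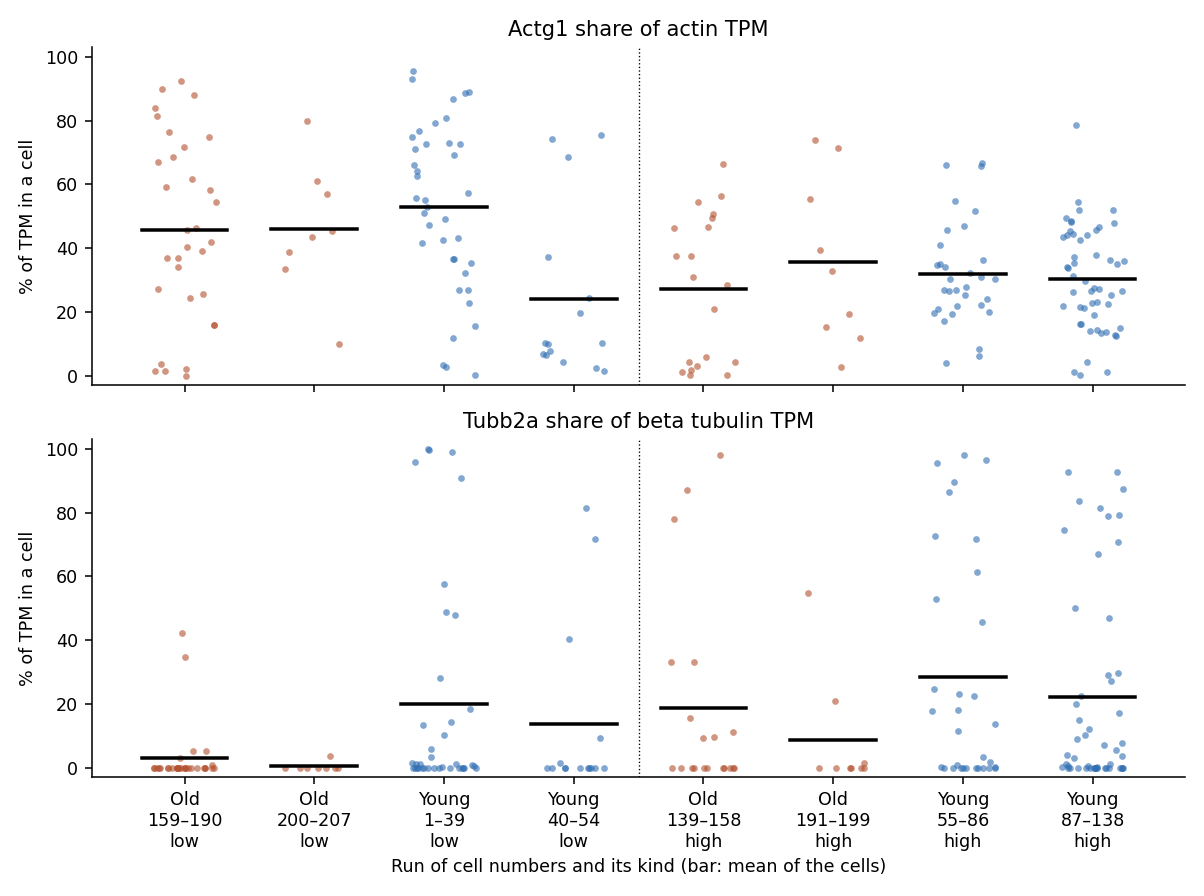
Share of TPM in each cell that was Actg1 among the actins (top) and Tubb2a among 7 beta tubulins (bottom), in percent, by run of cell numbers, low-kind runs left and high-kind runs right of the dotted line, with a bar at the mean. The mean Actg1 share was 45.9% in old and 44.9% in young low-kind cells, and the Tubb2a share was 2.43% in old and 18.2% in young low-kind cells.

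Tmsb4x, thymosin beta 4, the main monomer-holding protein of many cells, lies on the X chromosome. It ran from 0 through a median of 183 to 4110 TPM in old cells, and from 0 through a median of 115 to 9397 TPM in young cells. Its mean was 269 ± 512 TPM in old cells and 342 ± 1031 TPM in young cells. Mean and median thus went opposite ways, with a log2 ratio of -0.35 for means and 0.66 for medians. The 6 highest values belonged to the 6 cells with at least 1000 TPM of 13 macrophage and white blood cell markers (Ptprc, Cd68, Lyz2, Cd74, C1qa and others), 1 of 69 old cells and 5 of 138 young cells. These markers summed to between 8497 and 44937 TPM in those 6 cells, and to at most 191 TPM in the other old cells and 234 TPM in the other young cells.

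The old macrophage-marker cell, number 162, had 4110 TPM of Tmsb4x, and the 5 young ones had 2293, 2808, 4879, 5385 and 9397 TPM. Insulin transcripts still made up 30.5% of TPM in the old cell and 15.7% to 49.9% in the young cells. Marker levels of both kinds in 1 chamber were recorded; whether 1 cell or 2 were captured was not tested. These cells held 22.2% of all Tmsb4x TPM of old cells and 52.5% of that of young cells. With them left out, Tmsb4x averaged 212 ± 205 TPM in 68 old cells and 168 ± 166 TPM in 133 young cells, a log2 difference of 0.33 in the other direction. Within kinds and without them it was -0.17 in low-kind runs (144 TPM in old and 162 TPM in young cells) and 0.82 in high-kind runs (304 TPM in old and 172 TPM in young cells). The direction for Tmsb4x therefore rests on 6 cells and on the kind of run. Of the 6 highest cells of Actb, 4 were of this group, and of Cfl1, 2. It held 21.3% of the Actb TPM of young cells and 4.86% of that of old cells.

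**Figure D3:**
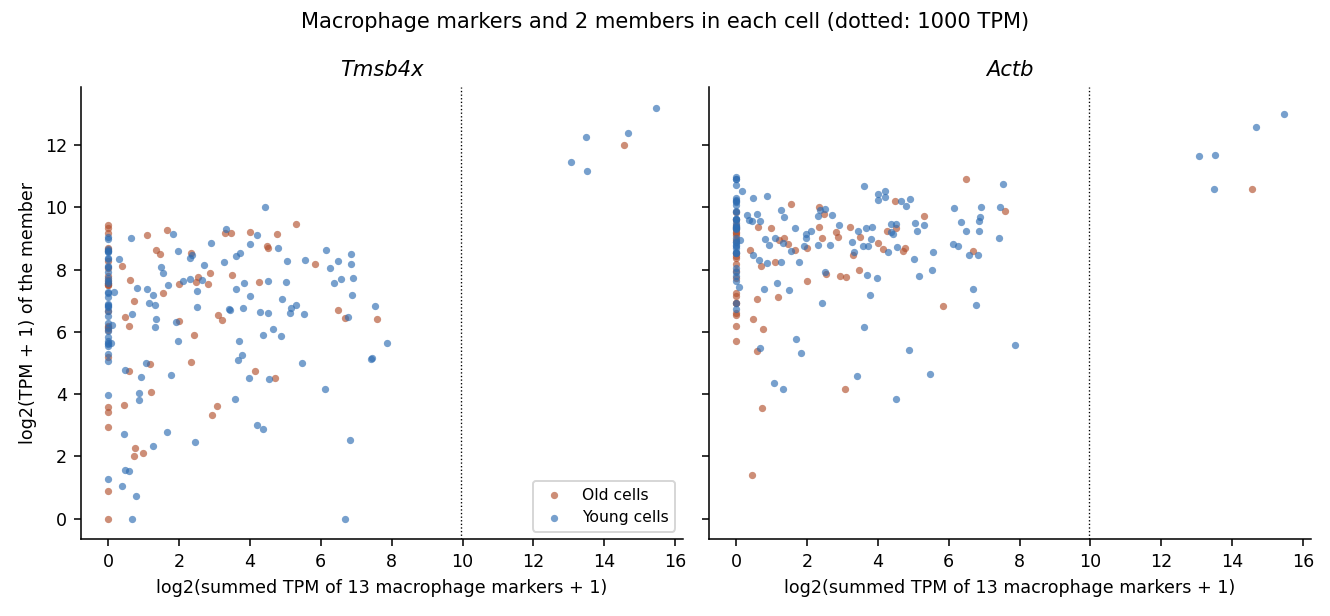
Summed TPM of 13 macrophage markers against the TPM of Tmsb4x (left) and Actb (right) in each cell, both on log2(TPM + 1) axes, old and young cells in 2 colours. The 6 cells right of the dotted line at 1000 TPM (1 old, 5 young) hold the 6 highest Tmsb4x values, and no cell lies between 234 and 8497 TPM of the markers.

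Tmsb10, thymosin beta 10, was low at both ages and differed in how many cells held it. It was detected in 19 of 69 old cells, 27.5% (interval 17.5% to 39.6%), and in 75 of 138 young cells, 54.3% (45.7% to 62.9%). It ran from 0 through a median of 0 to 88.9 TPM in old cells, and from 0 through a median of 1.63 to 131 TPM in young cells. The means were alike, 6.77 ± 18.8 TPM in old cells and 6.81 ± 14.6 TPM in young cells (log2 difference -0.01), and the 7 highest old cells held 84.7% of the old total. By run, 11.1% to 50.0% of cells in the old runs and 20.0% to 67.3% in the young runs had it, so the runs overlapped. Since the depth of a cell is unknown, a cell without it may hold it below detection. Of the 50-base words of Tmsb10 27.0% occur in other genes, most of them in Gm9844. Gm9844 averaged 3.49 TPM in old cells and 4.07 TPM in young cells. How reads that match both were shared out is not given, so the level and detection of Tmsb10 may depend on it.

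Among Tmsb4x and Tmsb10, the Tmsb10 share averaged 4.10% ± 14.0 in 68 old cells and 8.78% ± 19.7 in 138 young cells, leaving out 1 old cell with neither. The difference of -4.68 percentage points was -5.89 in low-kind and -4.88 in high-kind runs. Taken from summed TPM, where abundant cells weigh more, it was 0.50. The rows of a further beta thymosin locus on the X chromosome, Tmsb15b1, Tmsb15b2 and Tmsb15l, overlap each other in sequence and are given as a sum. That sum ran from 0 through a median of 8.81 to 1705 TPM in old cells, and from 0 through a median of 88.3 to 1699 TPM in young cells. It averaged 101 ± 228 TPM in old cells and 181 ± 277 TPM in young cells, a log2 difference of -0.84, with -0.58 in low-kind and -0.79 in high-kind runs. The sum exceeded Tmsb10 in 58.0% of old and 75.4% of young cells, and in the young cells 40 to 54 it averaged 0.227 TPM. With these rows counted among the thymosins, the age difference of the Tmsb10 share was -0.13 percentage points.

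Cfl1, the non-muscle cofilin, had similar medians, 51.5 TPM in old cells (range 0 to 294) and 55.7 TPM in young cells (range 0 to 1185). Its means were 71.0 ± 66.9 TPM in old cells and 87.9 ± 134 TPM in young cells, a log2 difference of -0.30, which was -0.70 in low-kind and 0.10 in high-kind runs. The highest value, in young cell 46, was 9.77% of the young total. Destrin, Dstn, a relative that also takes filaments apart, was the more abundant of the pair. It averaged 238 ± 263 TPM in old cells and 249 ± 328 TPM in young cells, and exceeded Cfl1 in 75.4% of old and 76.1% of young cells. Muscle cofilin Cfl2 averaged 12.3 TPM in old cells and 14.7 TPM in young cells.

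Pfn1, the main profilin, ran from 0 through a median of 12.4 to 331 TPM in old cells, and from 0 through a median of 10.8 to 404 TPM in young cells. It averaged 41.0 ± 61.7 TPM in old cells and 52.6 ± 92.7 TPM in young cells (log2 difference -0.35, -0.61 in low-kind and -0.10 in high-kind runs). It was detected in 76.8% of old cells and 68.8% of young cells. Here too the mean was lower and the median higher in old cells. Its relative Pfn2 averaged 6.06 TPM in old cells and 13.7 TPM in young cells. In low-kind runs 4 members were at least 1.5-fold lower in old cells, Cfl1, Pfn1, Tuba1b and Tubb2a, where 34.5% of all genes were, and 0 were higher, where 23.8% of all genes were.

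**Figure D4:**
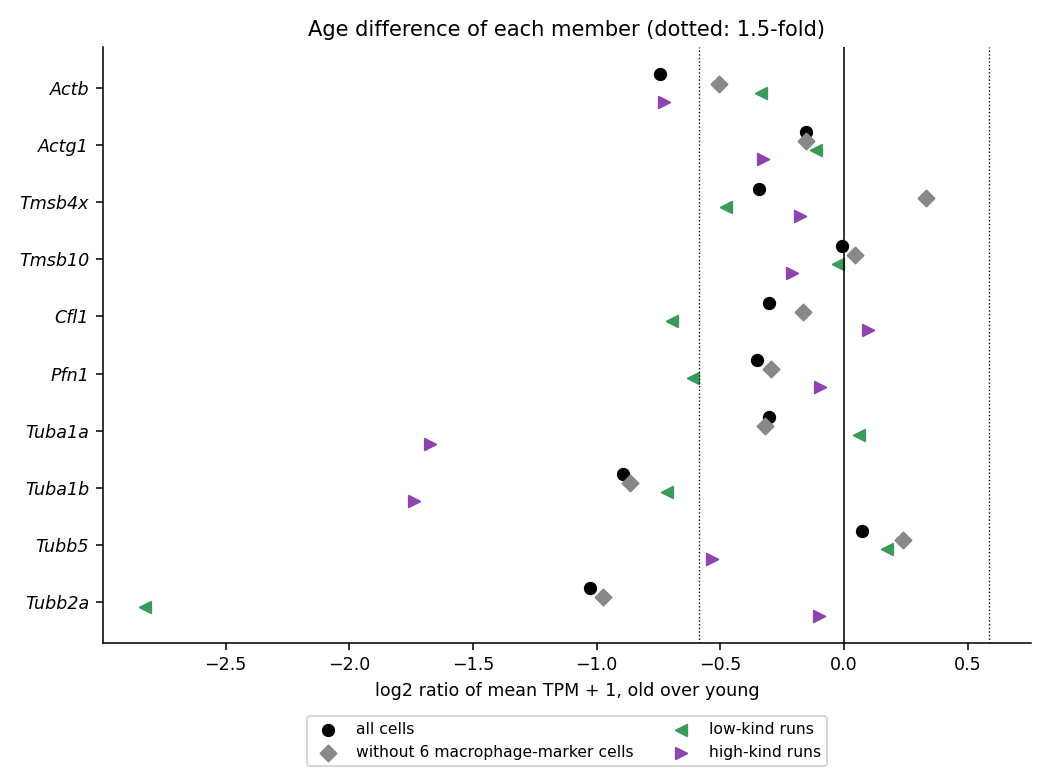
Log2 ratio of mean TPM plus 1, old over young, for each member in all cells, without the 6 macrophage-marker cells, in low-kind and in high-kind runs, with dotted lines at 1.5-fold. Tmsb4x changes side without the 6 cells (-0.35 against 0.33), and Tuba1a lies at 0.06 in low-kind and -1.67 in high-kind runs.

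Tuba1a and Tuba1b, alpha tubulins whose start sites face the same way on chromosome 15 with 15457 bases between the genes, were both lower in old cells of high-kind runs. Tuba1a ran from 0 through a median of 64.3 to 1798 TPM in old cells, and from 0 through a median of 118 to 1251 TPM in young cells. It averaged 204 ± 323 TPM in old cells and 252 ± 300 TPM in young cells, a log2 difference of -0.30. In low-kind runs it averaged 301 TPM in old and 288 TPM in young cells (0.06), and in high-kind runs 71.0 TPM in old and 229 TPM in young cells (-1.67). Both old high-kind runs were lower (72.2 and 68.5 TPM in cells 139 to 158 and 191 to 199) than both young high-kind runs (316 and 175 TPM in cells 55 to 86 and 87 to 138). How many of all genes order the high-kind runs so was not counted.

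Tuba1b ran from 0 through a median of 7.11 to 334 TPM in old cells, and from 0 through a median of 17.6 to 679 TPM in young cells. It averaged 37.3 ± 65.1 TPM in old cells and 70.2 ± 121 TPM in young cells, a log2 difference of -0.89, with -0.71 in low-kind and -1.74 in high-kind runs. Old high-kind run means were 20.2 and 11.2 TPM, against 44.6 and 70.0 TPM in the young high-kind runs. The lowest run mean was nonetheless young, 6.74 TPM in the low-kind cells 40 to 54. For Tuba1b too, the number of all genes that order the high-kind runs so was not counted. In high-kind runs 3 members were at least 1.5-fold lower in old cells, Actb, Tuba1a and Tuba1b, where 32.8% of all genes were, and 0 were higher, where 21.9% of all genes were.

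The alpha tubulin transcripts are hard to tell apart, since 75.5% of the 50-base words of Tuba1a and 83.1% of those of Tuba1b also occur in other genes, among them Tuba1c and processed pseudogenes. The sum of Tuba1a, Tuba1b and Tuba1c averaged 271 ± 395 TPM in old cells and 354 ± 344 TPM in young cells, a log2 difference of -0.38, with 0.03 in low-kind and -1.74 in high-kind runs. Thus the contrast between kinds was also in the sum. Tuba1a exceeded Tuba1b in 81.2% of old and 78.3% of young cells. Its share of the TPM of Tuba1a, Tuba1b, Tuba1c and Tuba4a averaged 61.5% ± 32.7 in old cells and 61.5% ± 32.2 in young cells. That equality was made of 66.9% in old and 60.5% in young low-kind cells, and 54.3% in old and 62.1% in young high-kind cells.

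Tubb5, a beta tubulin of most tissues, ran from 0 through a median of 8.50 to 491 TPM in old cells, and from 0 through a median of 3.80 to 874 TPM in young cells. It averaged 51.4 ± 104 TPM in old cells and 48.8 ± 124 TPM in young cells (log2 difference 0.07, 0.17 in low-kind and -0.53 in high-kind runs). It was the only member with a higher mean in old cells over all cells, but the difference was between -0.22 and -0.01 when any of 5 runs was left out (young cells 40 to 54, 55 to 86 or 87 to 138, old cells 159 to 190 or 200 to 207). Without the 6 macrophage-marker cells Tmsb4x (0.33) and Tmsb10 (0.04) also had higher means in old cells. In the young cells 40 to 54 Tubb5 averaged 0.825 TPM. Its words were almost its own, with 0.102% of them shared.

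Tubb2a, a beta tubulin abundant in neurons, had the largest age difference of the members by the ratio of means over all cells and by mean log2(TPM + 1), but not by the ratio of medians, where it was -0.87 against -1.40 for Tmsb10, -1.20 for Tuba1b and 0.98 for Tubb5. It was detected in 17 of 69 old cells, 24.6% (interval 15.1% to 36.5%), and in 68 of 138 young cells, 49.3% (40.7% to 57.9%). It ran from 0 through a median of 0 to 493 TPM in old cells, and from 0 through a median of 0.828 to 480 TPM in young cells. It averaged 18.5 ± 70.7 TPM in old cells and 38.8 ± 87.5 TPM in young cells, a log2 difference of -1.03. A single old cell, number 140, held 38.6% of the old total. In low-kind runs Tubb2a averaged 4.06 TPM in old and 34.9 TPM in young cells (-2.83), and in high-kind runs 38.4 TPM in old and 41.3 TPM in young cells (-0.10). Cell 140 was 1 of the 29 old high-kind cells, and the 2 old high-kind runs averaged 53.0 and 6.04 TPM. Without that cell, an alternative chosen after the data had been seen, the high-kind means were 22.2 TPM in 28 old and 41.3 TPM in 84 young cells (-0.87). In low-kind runs 18.8% and 12.5% of the cells of the old runs had it, and 41.0% and 33.3% of those of the young runs. In high-kind runs 35.0% and 33.3% of old and 62.5% and 51.9% of young cells had it. Within each kind the share of cells with Tubb2a was thus lower in both old runs than in both young runs. How many of all genes order the runs so was not counted, and the kinds were not fixed beforehand. Of the 50-base words of Tubb2a 49.6% occur elsewhere, most of them in Tubb2b, which averaged 0.0779 TPM in old cells and 0.0606 TPM in young cells.

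Among 7 beta tubulins, Tubb2a took a mean of 8.05% ± 20.5 of the TPM in 68 old cells and 22.1% ± 32.9 in 135 young cells, leaving out cells without any. The difference of -14.1 percentage points was -15.7 in low-kind and -8.98 in high-kind runs, and it stayed between -18.5 and -9.78 when any 1 run was left out. In 48 of 68 old cells and 52 of 135 young cells the share was 0, and it was above 90% in 1 old and 10 young cells. The summed level of the 7 genes was alike, 196 ± 306 TPM in old cells and 187 ± 246 TPM in young cells (log2 difference 0.07, 0.39 in low-kind and -0.68 in high-kind runs). Tubb4b was the most abundant of them by mean, 86.4 ± 215 TPM in old cells and 69.6 ± 109 TPM in young cells. Its medians went the other way, 5.50 TPM in old and 21.1 TPM in young cells, and its highest old cell held 1652 TPM. Neuronal Tubb3 averaged 22.0 ± 80.5 TPM in old cells and 9.27 ± 30.3 TPM in young cells, with 584 TPM in its highest old cell. It was detected in 21.7% of old and 23.2% of young cells, and its log2 difference was 3.58 in low-kind and -0.47 in high-kind runs.

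By mean TPM the order in old cells was Actb, Actg1, Tmsb4x, Tuba1a, Cfl1, Tubb5, Pfn1, Tuba1b, Tubb2a and Tmsb10. In young cells Tuba1b, Pfn1, Tubb5 and Tubb2a followed Cfl1, and the rest of the order was the same. Neighbours in either order differed by less than the larger SD of the pair. All 10 members were detected together in 4 of 69 old cells and 19 of 138 young cells, and a cell had a median of 8 members at both ages.

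Across cells the members were weakly correlated with each other. Over the 45 pairs the median Spearman correlation was 0.17 in old cells and 0.21 in young cells, and 0.18 over all cells with run means subtracted. Beside them stand 2249 genes with a symbol that averaged at least 10 TPM over all cells and were detected in at least 50% of cells. They include 8 of the members. The median correlation of all pairs of these genes was 0.08 in old cells and 0.09 in young cells. With run means subtracted over all cells it was 0.05 for all pairs of those genes and 0.19 for the pairs of the 8 members. The values share the cells' unknown depth, and the members' mean standardised level had a correlation of 0.72 in old and 0.48 in young cells with the number of detected genes, so these are descriptions only.

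Over all cells with run means subtracted, the pairs with the highest correlations were Actb and Actg1 (0.41) and Actb and Cfl1 (0.37). Within each age, again with run means subtracted, the correlation was 0.43 in old and 0.39 in young cells for Actb and Actg1, 0.35 and 0.38 in old and young cells for Actb and Cfl1, and 0.41 and 0.23 in old and young cells for Tuba1a and Tuba1b. Actg1 and Tuba1a had 0.46 in old cells, the highest of the 45 pairs there, and 0.16 in young cells, and Pfn1 and Tuba1a 0.40 in old and 0.02 in young cells. The difference between ages was not tested. The thymosins stood loosely beside each other (Tmsb4x and Tmsb10, 0.13 in old and 0.02 in young cells), as did the beta tubulins (Tubb5 and Tubb2a, 0.13 in old and -0.04 in young cells).

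**Figure D5:**
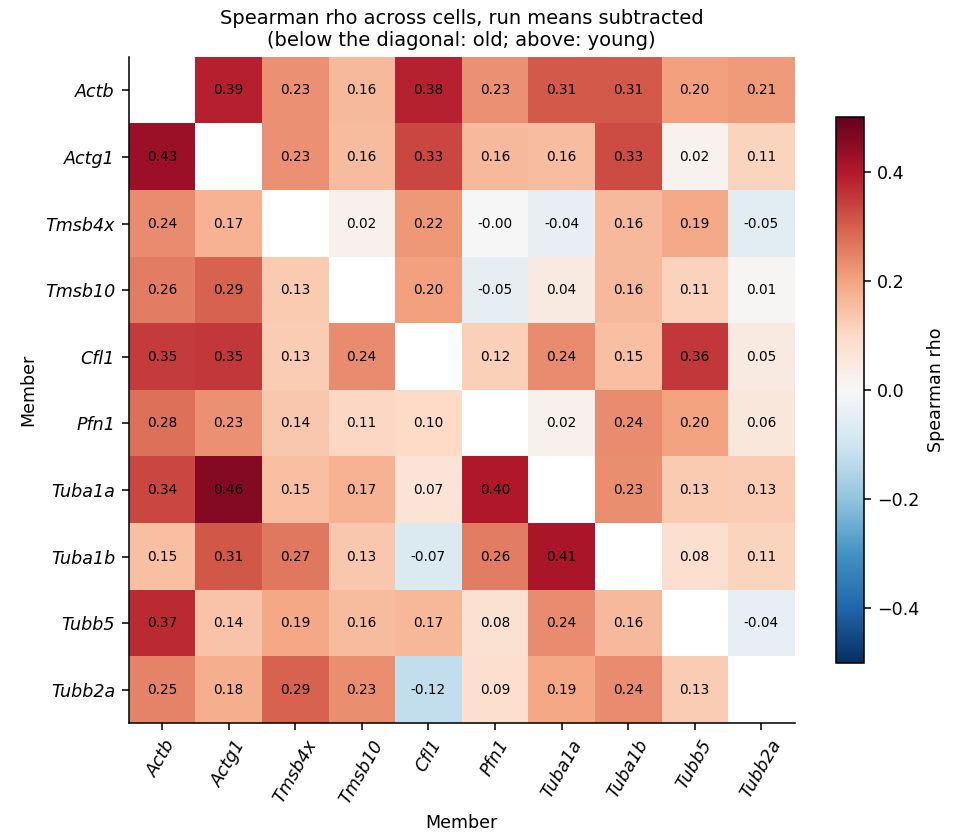
Spearman correlation of each pair of members across cells after run means of log2(TPM + 1) were subtracted, old cells below and young cells above the diagonal. Actb with Actg1 and with Cfl1 are among the higher values at both ages, and pairs of Tmsb4x, Tmsb10, Tubb5 and Tubb2a are mostly pale.

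The genes whose pattern was most like the mean of the members, by the lower of the old and young Spearman correlations with run means subtracted, included Gm12715 (0.50), Ptma (0.42), Ubb (0.39), Prdx1 (0.38), Sod1 (0.37), Ssr1 (0.36) and Eif5a (0.34). The median of 2249 genes by that measure was 0.08. Gm12715 shares sequence with Actg1 as described above. By single member, the most like gene was Actg1 for Actb (0.39), Gm12715 for Actg1 (0.79) and Cfl1 (0.36), Actb for Tuba1a (0.31), Rps16 for Tuba1b (0.33), Cox5a for Tubb5 (0.31), Rps6 for Pfn1 (0.27), Ubb-ps for Tmsb4x (0.26), Ptp4a2 for Tmsb10 (0.25) and Snhg3 for Tubb2a (0.24).

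Other genes of the actin system differed by similar small amounts. Of 20 measured genes of actin turnover 5 were 1.5-fold lower and 3 higher in old cells (median log2 difference -0.25), of 23 nucleation genes 4 and 4 (-0.18), and of 22 crosslinking and myosin genes 4 and 0 (-0.25). These shares lie near or under the 26.4% and 16.8% of all genes. Measured, for a list as for all genes, means a mean of at least 1 TPM at 1 of the ages or both. The capping subunits Capza1 and Capzb were higher in old cells (log2 difference 0.79 and 0.76, with 0.96 and 0.52 in low-kind and 1.00 and 0.13 in high-kind runs), with Capzb at 41.7 ± 90.5 TPM in old cells and 24.2 ± 59.2 TPM in young cells. Capza1 was detected in 29.0% of old and 23.2% of young cells. The more abundant subunit Capza2 was not higher, at 82.8 ± 206 TPM in old cells and 90.7 ± 188 TPM in young cells. Its log2 difference was -0.13, with -0.68 in low-kind and 0.40 in high-kind runs. Tropomyosin Tpm3 was lower, 18.1 ± 41.7 TPM in old cells and 35.8 ± 76.0 TPM in young cells (-0.94), and so were Coro1c, a coronin, at -0.89 and calponin Cnn3 at -0.76. Arpc3, a subunit of the Arp2/3 complex that starts branched filaments, averaged 36.6 ± 107 TPM in old cells and 15.5 ± 53.1 TPM in young cells (1.19). It was detected in 21.7% of old and 22.5% of young cells. Of the other subunits, Arpc1b (0.68) and Arpc2 (0.22) had higher means in old cells. Actr2 (-0.23), Actr3 (-0.19), Arpc1a (-0.17), Arpc4 (-0.18), Arpc5 (-0.27) and Arpc5l (-0.26) had lower ones. Myosin light chain Myl6, an abundant gene, had a higher mean in old cells, 298 ± 250.5 TPM against 211 ± 202 TPM in young cells (0.50), with 0.57 in low-kind and 0.33 in high-kind runs.

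Of 5 measured actin-related genes, 1 was lower and 0 were higher in old cells (median -0.46). Beside this and the lists that follow, 26.4% of all genes were lower and 16.8% were higher. Of 9 other tubulin genes 1 was lower and 3 were higher (0.14), and of 31 genes listed as microtubule regulators 2 and 4 (0.09). That list counts 1 splicing factor, Txnl4a, entered in error. The chaperonin CCT and its partner prefoldin fold new actin and tubulin chains. Of their 14 genes 2 were lower, 14.3%, and 0 higher (-0.11), both under the shares of all genes. The 2 were Cct3, 19.2 ± 44.5 TPM in old cells and 40.8 ± 90.6 TPM in young cells (-1.05), and the prefoldin subunit Vbp1, 28.3 ± 74.2 TPM in old cells and 67.1 ± 133 TPM in young cells (-1.22). Both were lower in old cells of each kind of run, with log2 differences of -0.64 and -1.33 for Cct3 and -1.62 and -0.81 for Vbp1 in low-kind and high-kind runs. Of 8 intermediate filament genes 2 were lower and 1 was higher (-0.01). The epithelial keratins Krt18 and Krt7 averaged 112 and 114 TPM in old cells and 82.1 and 86.1 TPM in young cells, but Krt7 was -0.19 in low-kind runs. Keratin Krt8 went the other way, 49.0 ± 112 TPM in old cells and 69.3 ± 154 TPM in young cells. Its log2 difference was -0.49, with -0.83 in low-kind and -0.21 in high-kind runs.

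The list of SRF, its coactivators and target or immediate early genes had 9 of 13 measured genes 1.5-fold lower and 1 higher in old cells (median -1.13), where 26.4% and 16.8% of all genes were. The median of the list was -0.52 in low-kind and -1.73 in high-kind runs. Of the 9, Ccn1 and Ccn2, listed under their older symbols Cyr61 and Ctgf, were each detected in 0.725% of young cells, that is in 1 cell, at 219 and 359 TPM. Ccn1, Ccn2 and Zyx averaged 1 TPM or more in young cells only (1.61, 2.61 and 2.64 TPM, against 0.292, 0 and 0.0126 TPM in old cells). Filip1l, the 1 higher gene, did so in old cells only (1.63 TPM, against 0.653 TPM in young cells). The direction of these calls was thus set by the filter that made the genes measured. Fos averaged 191 ± 285 TPM in old cells and 557 ± 458 TPM in young cells (-1.54), and Fosb 14.4 ± 22.5 TPM in old cells and 58.3 ± 87.8 TPM in young cells (-1.95). Within kinds the differences were -0.69 and -2.89 for Fos and 0.43 and -3.91 for Fosb in low-kind and high-kind runs. Spearman correlations with these genes from cell to cell were taken with run means subtracted. The correlation of Actb was 0.12 in old and 0.07 in young cells with Fos, and 0.11 and 0.12 in old and young cells with Egr1. It was 0.28 and 0.06 in old and young cells with Fosb, and -0.08 and 0.16 with Srf. That of Actg1 was 0.06 and 0.16 in old and young cells with Fos, 0.12 and 0.20 with Egr1, -0.01 and 0.17 with Fosb, and 0.09 and 0.16 with Srf.

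Of the markers of cell types outside the islet's hormone cells, the summed TPM of 9 endothelial, 10 fibroblast and stellate, and 10 acinar markers had medians of 0 to 0.102 at both ages. In old cells 6 of the endothelial, 9 of the fibroblast and 8 of the acinar markers never reached 10 TPM, against 5, 6 and 9 of them in young cells. The highest fibroblast and stellate sum was 601 TPM in an old cell and 1797 TPM in a young cell. Markers of the other hormone cells and of duct cells were not scarce as sums. The sum of 6 alpha cell markers had a median of 927 TPM in old cells and 949 TPM in young cells, and that of 7 duct markers 104 TPM in old cells and 52.8 TPM in young cells. In old cells 3 of the alpha and 4 of the duct markers never reached 10 TPM, against 1 and 3 of them in young cells. The sum of 5 delta and PP cell markers had a median of 205 TPM in old cells and 60.2 TPM in young cells. Of the 5 markers 3 were 1.5-fold higher and 1 was lower in old cells, where 16.8% and 26.4% of all genes were. The alpha cell sum had a Spearman correlation of 0.43 in old and 0.26 in young cells with the summed level of the 10 members. The part of these markers in the members' differences was not tested. The 13 macrophage markers had a median of 1.27 TPM in old cells (range 0 to 24091) and 3.13 TPM in young cells (range 0 to 44937). The sum of 6 cycling markers had medians of 0.451 TPM in old cells and 1.54 TPM in young cells (highest 440 in old and 1728 in young cells). Of these markers 4 of 4 measured were 1.5-fold lower in old cells, where 26.4% of all genes were. In old cells 4 of the 6 never reached 10 TPM, against 1 in young cells, so these ratios rest on few cells. The part of the cycling markers in the tubulin differences was not tested.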

How the data were processed

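Islet cells were captured one by one on a microfluidic chip, and SMARTer cDNA was turned into Nextera XT libraries, as the labels' protocols say. CASAVA 1.8.2, FastQC and the build GRCm38 (mm10) are named by the submitters' processing notes. How reads were aligned and counted, with which annotation and with or without strand, is not given in the sources used here. TPM values were deposited by the authors in 1 table, 1 column per cell, and 0 columns were left unused. TPM holds no read depth, so the precision of single values is unknown, and no molecular identifiers are mentioned. No 2 cells had identical values (0 pairs).

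Rows were named from a RefSeq gene table of GRCm38.p6 (39725 of 44448 matched), which also gave the coordinates. Age differences are log2 ratios, old over young, of mean TPM with 1 added to each mean, which makes differences of low genes look smaller, and 1.5-fold counts describe size only. With 1 sample at each age, no test was made. Main values use all cells, without clustering or a doublet caller. Shared sequence was counted as 50-base words in GENCODE transcripts. The members, gene lists, runs and kinds of runs were chosen with earlier results of these data known; the macrophage mark of 1000 TPM was chosen after the data had been seen. Named genes were the members, the 2 highest and 2 lowest genes of each list at a mean of 10 TPM or above, and the genes most like the members; the text gives examples, and some results of this rule and these lists are not reported here. The ratio and the correlation were tested on simulated data. Alternatives were other pseudocounts (0.1 and 10), log means, medians, rescaled TPM, runs left out, pseudogene rows added and other correlations. Python 3.11.15, numpy 2.4.6, pandas 2.3.3 and scipy 1.17.1 were used.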

Additional observations from a re-analysis of the deposited data

How the results depend on the processing

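The count of members at least 1.5-fold lower in old cells was 3, and it lay between 2 and 4 under the alternatives except with differences of mean log2(TPM + 1), where it was 6, against 7.28% of all genes and 16.3% of those averaging 10 TPM or more. The count of members at least 1.5-fold higher was 0 except with the ratio of medians, where it was 2 (Tmsb4x and Tubb5) against 2.04% of all genes and 4.34% of those averaging 10 TPM or more. The log2 difference of the summed level was negative under each alternative that was run and lay between -0.56 and -0.18. The difference in the Actg1 share of actin TPM, 2.79 percentage points, was 9.29 without the young cells 1 to 39, -0.84 without the young cells 87 to 138, -2.96 without the old cells 159 to 190, -1.03 in high-kind runs and 9.96 from summed TPM. The difference in the Tuba1a share of alpha tubulin TPM, 0.05 points, was -2.47 and -3.72 without the young cells 1 to 39 and 87 to 138. It was 6.31, -2.10, -1.49 and -2.12 without the old cells 139 to 158, 159 to 190, 191 to 199 and 200 to 207, and 6.37 in low-kind and -7.79 in high-kind runs. The Tubb2a share of beta tubulin TPM, at -14.1 points, was -8.98 in high-kind runs, and the Tmsb10 share of thymosin TPM, at -4.68 points, was 0.50 from summed TPM. The cause was not tested. The median correlation of the members stayed between 0.14 and 0.23. Without the 6 macrophage-marker cells, an alternative chosen after seeing the data, 2 members were 1.5-fold lower, against 25.4% of all genes. Adding pseudogene rows, by name or by shared 50-base words, moved the summed level by little (-0.44 and -0.41). No paired analysis was possible because the labels number single cells across both ages and name no animal or batch that the ages share. TPM without depth limits what can be said of Tmsb10 and Tubb2a, which were at 0 in many cells.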
